A study of Mus musculus with 12 samples.

Results

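The proteasome is the large protease that degrades ubiquitin-tagged proteins, and its subunit genes were examined in RNA from mouse hippocampus. Members were the genes whose symbol is Psma, Psmb, Psmc or Psmd followed by a number, and 39 of the 54427 genes in the count table matched. They comprised 8 Psma, 11 Psmb, 6 Psmc and 14 Psmd genes. By role they were 8 alpha-ring genes, 7 constitutive beta-ring genes, 4 immunoproteasome or thymoproteasome beta genes, 6 ATPases, 3 non-ATPase base subunits, 8 lid subunits and 3 assembly chaperones that carry a Psmd name. Of the 39, 37 passed the filter on low counts and were tested among 17227 genes.

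The study holds 12 libraries, 3 from each of 4 genotypes. These are wild type (WT), the amyloid model 5xFAD, Ulk1OV, and mice that carry both (5xFAD;Ulk1OV). 5xFAD mice carry mutant human APP driven by the neuronal Thy1 promoter, and they deposit amyloid. The name Ulk1OV is read here as overexpression of ULK1, the kinase that starts autophagy, the other main route of protein degradation. For the Ulk1OV allele the sources used here state neither construct nor promoter, and for the mice neither age, sex nor strain. The labels call the material hippocampal tissue and also primary cells, and do not say that the 3 libraries of a group came from separate animals. The p-values thus rest on how much libraries vary within groups, estimated over all 4 groups together. That variation may be technical only.

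Each library held 16149992 to 18547132 counts, and no pair of replicates looked like 1 library deposited again (chi-square per degree of freedom 7.25 to 30.2). CPM below is a gene's count scaled to its library's effective size. Marker sums were 4298 to 5598 CPM for neurons, 1337 to 1854 for astrocytes and 6917 to 12990 for oligodendrocytes. Markers of the choroid plexus, a neighbouring tissue, reached 6239 CPM in WT replicate 3 and 4199 in Ulk1OV replicate 1, against 24.0 to 334 in the other 10 libraries. App and Prnp did not match the label of 1 library, 5xFAD;Ulk1OV replicate 3. Their levels there were 1310 and 954.0 CPM, against 2201 to 2667 and 2067 to 2510 CPM in the other 5 libraries with the 5xFAD label, and 1241 to 1493 and 900.1 to 1119 CPM in the 6 without it. It is called by its label below, and the edgeR calls that use it are also given with it left out. Group sums, means, ratios, correlations and calls under other settings include it unless stated. Ulk1 lay at 84.6 to 102 CPM in the 6 libraries labelled Ulk1OV and at 63.5 to 86.3 CPM in the other 6.

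The core particle of the proteasome is a barrel of stacked rings. Alpha subunits form the outer rings and the gate, and beta subunits form the inner rings, in which Psmb5, Psmb6 and Psmb7 carry the proteolytic sites. In immune cells, and elsewhere after interferon, Psmb8, Psmb9 and Psmb10 take the places of those catalytic subunits and form the immunoproteasome, which favours peptides for class I antigen presentation. The regulatory particle caps the barrel: its ATPase ring of Psmc subunits unfolds substrates, its base and lid of Psmd subunits bind and remove ubiquitin, and the transcription factor NRF1 (gene Nfe2l1) raises the subunit genes together when proteasome activity falls.

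Levels were compared between genes per kilobase of merged exons. Psmb4, a structural beta subunit, had the highest mean over the 12 libraries, 113 CPM per kilobase (range 90.4 to 129), followed by the ATPase Psmc5 at 112 (95.9 to 125) and the catalytic subunit Psmb6 at 110.3 (92.0 to 129). These 3 ranges overlapped almost entirely, so their order was not resolved. Psmb5 averaged 87.5 CPM per kilobase (54.7 to 114) and Psmb7 60.1 (48.2 to 72.7). The Psmd assembly chaperones, which hold the base together while it is built and then leave, were the lowest group of the constitutive genes at 14.6 (Psmd5), 11.1 (Psmd10) and 10.3 (Psmd9) CPM per kilobase. Among the immunoproteasome genes Psmb10 stood at 24.3 CPM per kilobase (18.9 to 30.4), whereas Psmb8 and Psmb9 were at 2.01 (1.07 to 2.78) and 1.64 (0.692 to 2.37). Psma8, the alpha subunit of the testis proteasome, had 1 to 11 counts per library (48 in all), and Psmb11, the thymus beta subunit, had 1 to 14 (73 in all), both too few to test.

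**Figure D1:**
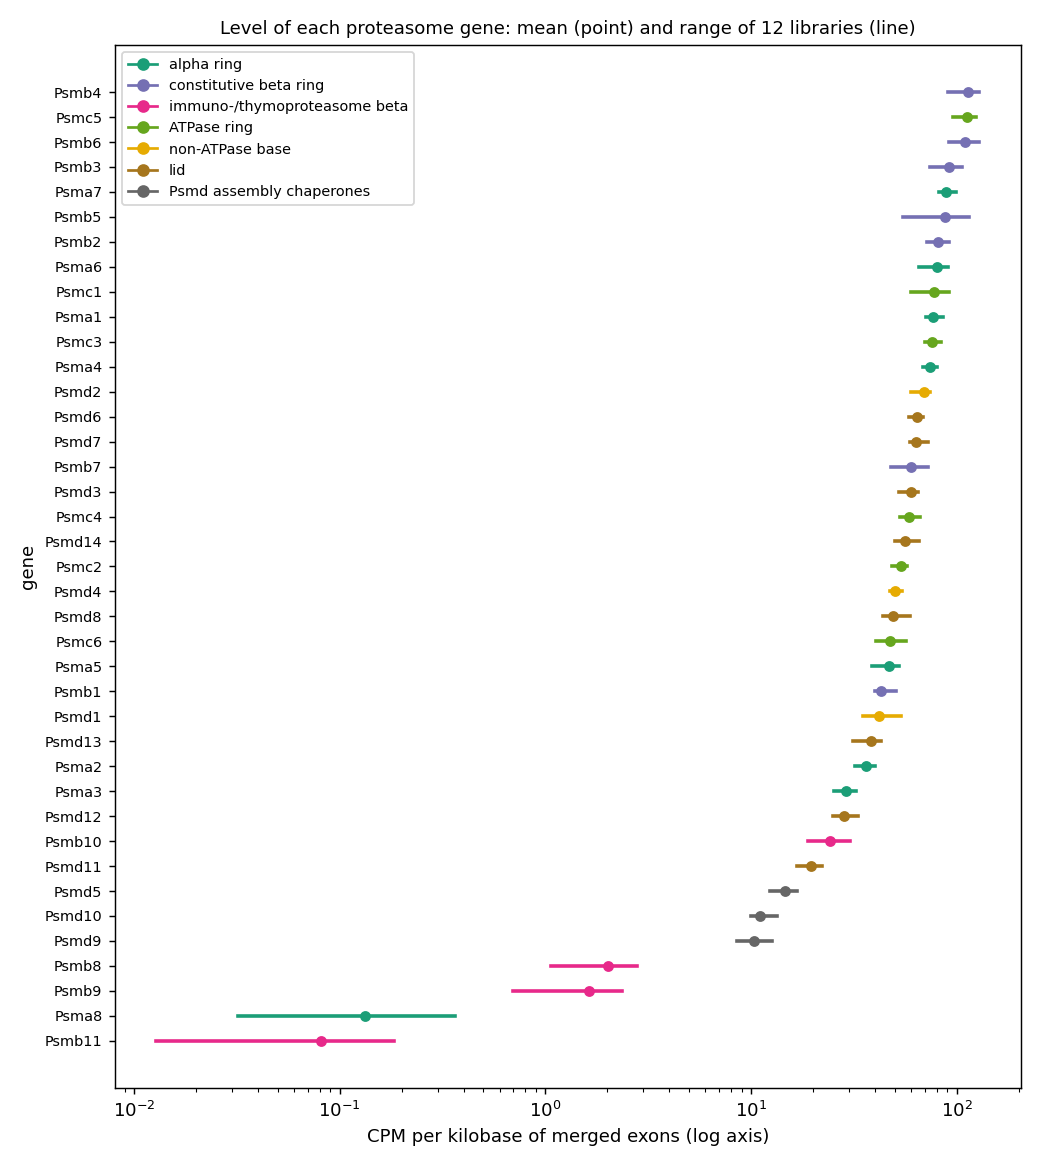
Mean level of the 39 proteasome genes (points) with the range over 12 libraries (lines), in CPM per kilobase of merged exons on a log axis, coloured by role. The constitutive genes other than Psma8 lie between 10.3 and 113 CPM per kilobase, and Psmb8, Psmb9, Psma8 and Psmb11 lie below all of them.

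Proteasome transcripts as a whole lay at like levels in the 4 groups. Summed over the members they took 3245 ± 68.5 CPM for WT, 3238 ± 39.2 for 5xFAD, 3320 ± 250.2 for Ulk1OV and 3333 ± 76.6 for 5xFAD;Ulk1OV (SD, n = 3 each), with all 4 ranges overlapping. Of the Ulk1OV libraries 1 was at 3040 CPM and the highest at 3521, the widest spread of any group. Within groups, the members varied less than other genes: the median within-group SD was 0.10 on the log2(CPM + 0.5) scale, against 0.19 over all genes tested and 0.13 over the 8099 genes with at least 20 CPM. The steadiest member was the lid subunit Psmd7 (SD 0.05) and the most variable was Psmb9 (SD 0.29), which also had the fewest counts among the tested members. In bulk RNA, fewer cells of a type and less RNA per cell cannot be told apart.

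**Figure D2:**
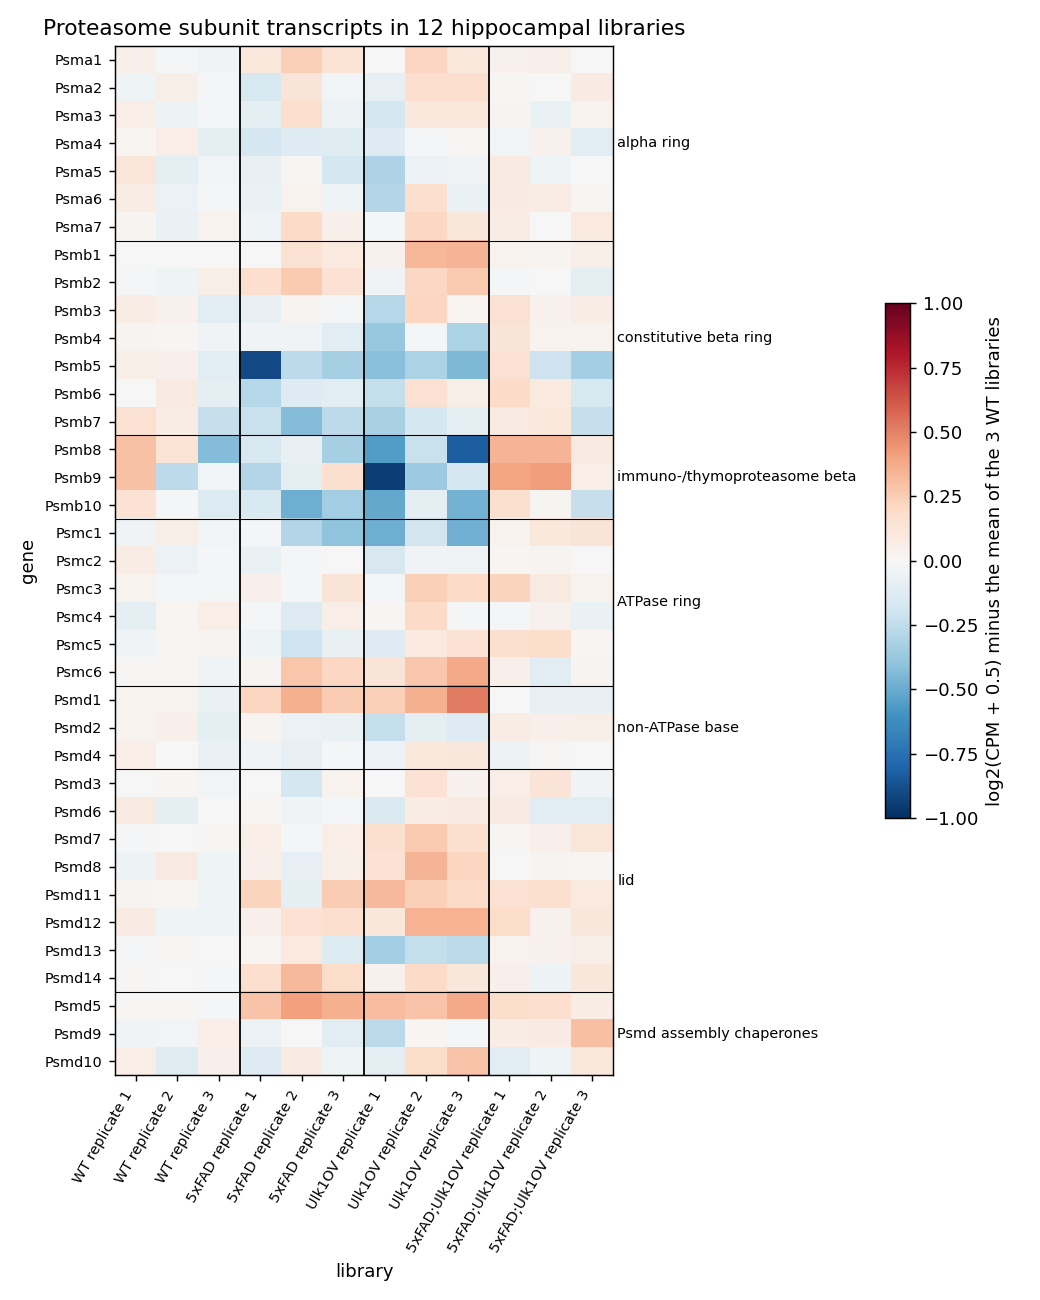
Each row is a tested proteasome gene, grouped by role, and each column a library. Colour gives log2(CPM + 0.5) minus the mean of the 3 WT libraries. The alpha ring is mostly pale, with Psma5 and Psma6 lower in Ulk1OV replicate 1, Psmd1 and Psmd5 are higher and Psmb5, Psmb10 and Psmc1 mostly lower in the 5xFAD and Ulk1OV columns, and the group means of 5xFAD;Ulk1OV lie nearer to WT for these genes.

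The first question was whether the amyloid model alone shifted the subunits. In 5xFAD against WT, 14 of the 37 members were higher and 23 lower, with a median log2 fold change of -0.03 (0.003 over all genes tested). By the quasi-likelihood test of edgeR, adjusted after Benjamini and Hochberg over all genes tested, 0 members passed an adjusted p of 0.05, where 0.0% of all genes did. At an unadjusted p under 0.05 there were 8 members, 4 higher and 4 lower, or 21.6%, against 12.4% of all genes. DESeq2 called 1 member, against 0.907% of all genes it tested. That member was Psmd5, the chaperone that guards the ATPase ring during assembly, at log2 0.35 ± 0.07 (SE, edgeR adjusted p = 0.127; DESeq2 adjusted p = 0.00624). Psmd1, the scaffold subunit of the base, gave 0.28 ± 0.08 (edgeR adjusted p = 0.252), and Psmd14, the deubiquitinase of the lid, 0.23 ± 0.08 (edgeR adjusted p = 0.278). Psmb5, which carries the chymotrypsin-like site, gave -0.47 ± 0.15 (edgeR adjusted p = 0.275), and with no filter on low counts it was the 1 member edgeR called.

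Adding Ulk1OV to 5xFAD gave a similar count. In 5xFAD;Ulk1OV against 5xFAD, 26 members were higher and 11 lower, with a median log2 fold change of 0.05 (-0.001 over all genes). Again 0 members passed edgeR's adjusted threshold (0.0464% of all genes), 9 had an unadjusted p under 0.05 (5 higher and 4 lower, 24.3% against 17.4% of all genes), and DESeq2 called 1 (5.47% of all genes it tested). The DESeq2 call was Psmd1, at log2 -0.33 ± 0.08 (edgeR adjusted p = 0.0977; DESeq2 adjusted p = 0.0157). Psmc1, an ATPase of the ring, gave 0.32 ± 0.11 (edgeR adjusted p = 0.155), and it was called when 5xFAD replicate 1 was left out (adjusted p = 0.0472). Without the library labelled 5xFAD;Ulk1OV replicate 3, edgeR called 0 members in both of these comparisons and 0.017% and 0.0682% of all genes. DESeq2 without it called Psmd5 in the first comparison and, in place of Psmd1, Psmb7 in the second.

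In Ulk1OV against WT a few subunits of the regulatory particle moved in opposite directions. Psmd1 (log2 0.38 ± 0.08, 1.30-fold, edgeR adjusted p = 0.0299) and Psmd5 (0.33 ± 0.07, 1.26-fold, adjusted p = 0.0287) rose, and the lid subunit Psmd13 fell (-0.28 ± 0.07, adjusted p = 0.0481). These 3 of 37 members (8.11%) compare with 5.17% of all genes tested. At an unadjusted p under 0.05 there were 14 members, 8 higher and 6 lower (37.8% against 24.1%), and DESeq2 called 5 (13.5% against 11.2%), which were the same 3 with Psmd12 higher and Psmc1 lower. The median over the members was 0.05, against 0.003 over all genes. The lid had 7 of 8 members higher (median 0.16), and the 3 immunoproteasome genes were all lower (median -0.59), none of them past the adjusted threshold.

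The library values show how small these steps are. Psmd1 (GRCm38, chromosome 1, 86064387 to 86139151) stood at 119, 119 and 111 CPM for WT, 135, 148.5 and 138 for 5xFAD, 137, 149 and 166 for Ulk1OV and 117, 109.6 and 109 for 5xFAD;Ulk1OV. All 6 libraries with a single label lay above all 6 others. Psmd5 (chromosome 2, 34849734 to 34874968) was at 55.9, 56.1 and 54.7 CPM for WT, 68.0, 73.8 and 71.1 for 5xFAD, 68.8, 67.8 and 72.6 for Ulk1OV and 62.9, 62.4 and 58.4 for 5xFAD;Ulk1OV. Here too the single-label groups were highest, with 5xFAD;Ulk1OV between them and WT and no overlap on either side. Against WT, the share of counts from mitochondrial genes was placed like these genes in the single-label groups but not throughout 5xFAD;Ulk1OV. It was 5.05 to 5.42% for WT, 5.52 to 6.98% for 5xFAD and 6.40 to 8.76% for Ulk1OV. For 5xFAD;Ulk1OV replicates 1 and 2 the share was 4.17 and 4.04%, below WT, while their Psmd5 lay above WT. Replicate 3 of that label had a share of 5.97%, above WT, although its Psmd1 lay below every WT library. Every single-label library thus lay above every WT library in that share, and its part in the results was not tested. Psmd13 (chromosome 7, 140881968 to 140898643) was at 78.3, 80.0 and 79.3 CPM for WT, 80.3, 85.0 and 72.0 for 5xFAD, 62.6, 67.0 and 66.1 for Ulk1OV and 81.2, 81.4 and 82.4 for 5xFAD;Ulk1OV. Only the Ulk1OV libraries of Psmd13 lay apart from all others. Sirt3 overlaps Psmd13 on the opposite strand at 47.1 CPM, and the sources used here do not say whether counting used strand. Reads in the overlap may thus have been counted for either gene or for neither.

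These calls depended on single libraries. Without Ulk1OV replicate 3, WT replicate 1, WT replicate 2 or WT replicate 3, 0 members were called in Ulk1OV against WT. In the first 3 of these runs edgeR called 0 of all genes too. With 5xFAD replicate 1 or Ulk1OV replicate 2 left out, 5 members were called (7.34% and 5.82% of all genes). The library labelled 5xFAD;Ulk1OV replicate 3 bears on this comparison only through the common dispersion, filter and scaling, and without it 4 were called: Psmd1, Psmd5, Psmd13 and Psmc1 (6.72% of all genes). Of the libraries with choroid plexus RNA, leaving out WT replicate 3 gave 0 members (2.52% of all genes) and leaving out Ulk1OV replicate 1 gave 4 (2.8%). A correction of each library for GC content and transcript length ended the calls of Psmd1 (adjusted p = 0.0519), Psmd5 (0.0581) and Psmd13 (0.121), and called the lid subunits Psmd3 (0.0326) and Psmd8 (0.0481) instead. Over all 19 alternatives the adjusted p ran from 0.00215 to 0.154 for Psmd1, from 0.00235 to 0.151 for Psmd5 and from 0.0102 to 0.162 for Psmd13.

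With Ulk1OV as the baseline, the 5xFAD label went with the opposite directions. In 5xFAD;Ulk1OV against Ulk1OV, Psmd1 fell (log2 -0.43 ± 0.08, edgeR adjusted p = 0.018), while Psmc1 (0.47 ± 0.11, 1.38-fold, adjusted p = 0.0266) and Psmd13 (0.32 ± 0.07, 1.25-fold, adjusted p = 0.0274) rose. These 3 members (8.11%) compare with 6.1% of all genes. At an unadjusted p under 0.05 there were 14 members, 8 higher and 6 lower (37.8% against 24.8%). DESeq2 called 8, 6 higher and 2 lower (21.6% against 13.7%), adding Psmb4, Psmb8, Psmb9, Psmc6 and Psmd2. The median over members was -0.02, and over all genes -0.01. This comparison shares its Ulk1OV libraries with the one before, so the reversed signs of Psmd1 and Psmd13 are not a second, separate observation.

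Psmc1 (chromosome 12, 100110154 to 100123405) was at 130.2, 139 and 131 CPM for WT, 131, 108.5 and 101 for 5xFAD, 94.8, 117 and 95.4 for Ulk1OV and 136, 143 and 146 for 5xFAD;Ulk1OV. Its 3 Ulk1OV libraries lay below every WT and every 5xFAD;Ulk1OV library, and 5xFAD replicate 1 overlapped WT. When the library labelled 5xFAD;Ulk1OV replicate 3 was left out, edgeR gave -0.40 ± 0.10 for Psmd1 (adjusted p = 0.0263), 0.46 ± 0.12 for Psmc1 (0.033) and 0.33 ± 0.09 for Psmd13 (0.0317), and Psmb8 was called as well, 4 members in all (8.97% of all genes). Leaving out 5xFAD;Ulk1OV replicate 1, 5xFAD;Ulk1OV replicate 2 or Ulk1OV replicate 3 left 0 members and 0 of all genes called, leaving out Ulk1OV replicate 1 left Psmd1 alone (2.19% of all genes), and leaving out Ulk1OV replicate 2 gave 6 (9.23%). The correction for GC content and length kept Psmd1 (adjusted p = 0.043) and Psmc1 (0.0423) and ended the call of Psmd13 (0.117).

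**Figure D3:**
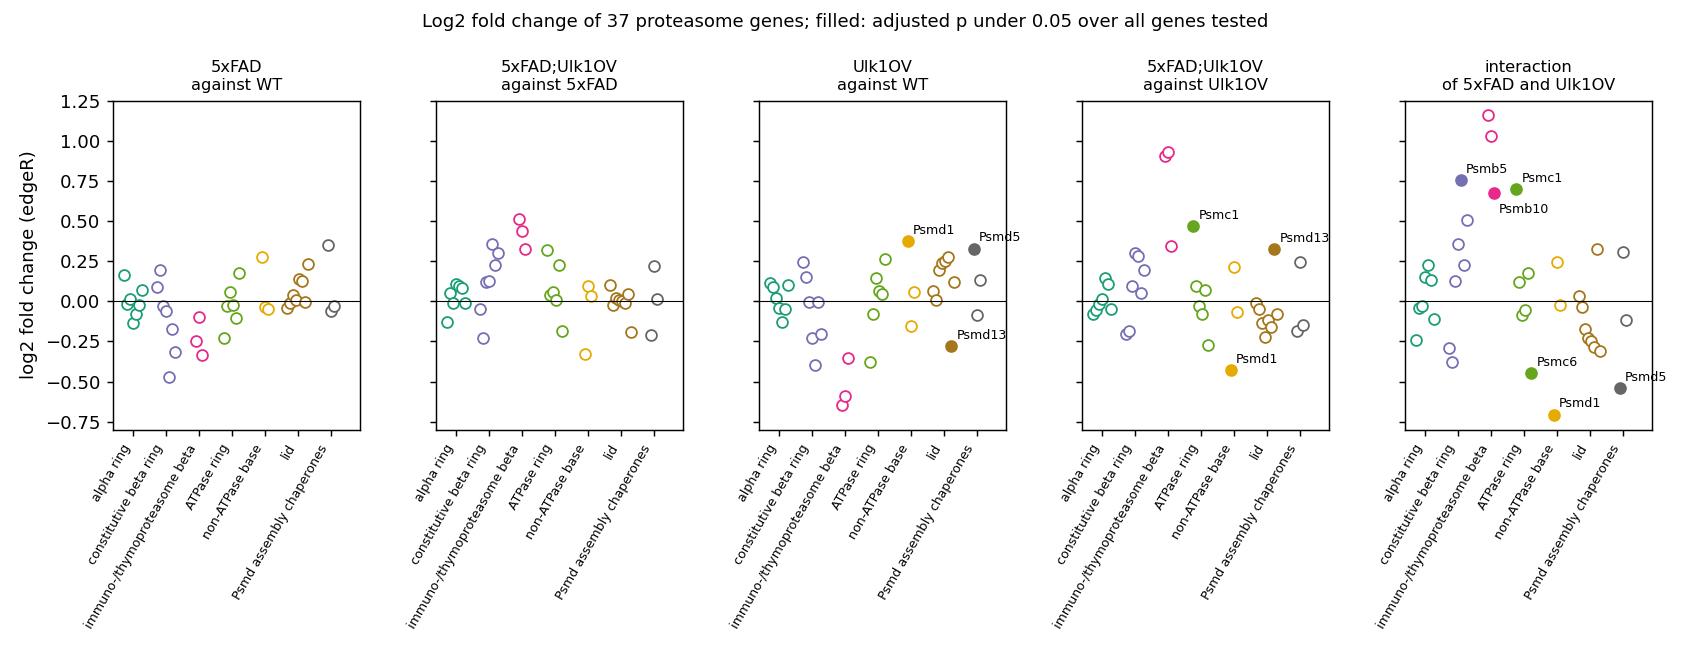
Fitted log2 fold change of each of the 37 tested members (points) by role, with 1 panel per comparison and 1 for the interaction. Filled and named points passed an adjusted p of 0.05 over all genes tested. The first 2 panels hold no filled point, the next 2 hold 3 each and the interaction holds 6, while the alpha ring stays within 0.25 of 0 in every panel.

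The interaction asks whether the 5xFAD difference was the same with and without Ulk1OV. Its value is the log2 fold change of 5xFAD;Ulk1OV against Ulk1OV minus that of 5xFAD against WT. By edgeR's quasi-likelihood test 6 of 37 members passed, 3 in each direction (16.2%, against 12.8% of all genes). Negative values belonged to Psmd1 (-0.71 ± 0.12, adjusted p = 0.00591), Psmd5 (-0.54 ± 0.10, adjusted p = 0.00761) and the ATPase Psmc6 (-0.45 ± 0.13, adjusted p = 0.0348). Positive values belonged to Psmc1 (0.70 ± 0.15, adjusted p = 0.0123), Psmb5 (0.75 ± 0.22, adjusted p = 0.0382) and Psmb10 (0.68 ± 0.20, adjusted p = 0.0424). At an unadjusted p under 0.05 there were 17 members, 9 positive and 8 negative (45.9% against 29.4%), and DESeq2 called 11 (29.7% against 17.3%). The median over members was -0.02, and over all genes -0.01.

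Psmd1, Psmd5 and Psmc1 passed the interaction test under all 18 alternatives tried, with adjusted p from 7.69e-06 to 0.0215, from 0.000129 to 0.0472 and from 0.000172 to 0.0403. These 3 were also the whole set called without 5xFAD replicate 3, 5xFAD;Ulk1OV replicate 1, 5xFAD;Ulk1OV replicate 2, Ulk1OV replicate 3, WT replicate 1 or WT replicate 2. In those runs 5.53% to 7.13% of all genes were called. Without the library labelled 5xFAD;Ulk1OV replicate 3, 8 members passed (14.4% of all genes): the 6 above, with Psmd1 at -0.66 ± 0.13 and Psmc1 at 0.71 ± 0.16, and 2 more, Psmb7 and Psmb8. Without Ulk1OV replicate 2 there were also 8 (14.7%). The other 3 calls ended under the correction for GC content and length, where Psmb5 was at 0.30 ± 0.21 (adjusted p = 0.449), Psmb10 at 0.28 ± 0.16 (0.367) and Psmc6 at -0.06 ± 0.11 (0.793). That correction called Psmb2, Psmd3 and Psmd8 in their place, so its count stayed at 6 (5.18% of all genes).

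Psmc6 (chromosome 14, 45329788 to 45349705) was at 98.7, 99.0 and 95.6 CPM for WT, 99.6, 119 and 113 for 5xFAD, 107, 118 and 127 for Ulk1OV and 101, 90.5 and 99.8 for 5xFAD;Ulk1OV. The 5xFAD and Ulk1OV libraries all lay above WT, while 5xFAD replicate 1 overlapped 5xFAD;Ulk1OV. Psmb5 (chromosome 14, 54614119 to 54618022) was at 96.3, 95.7 and 85.9 CPM for WT, 49.2, 77.2 and 73.6 for 5xFAD, 69.1, 74.0 and 67.5 for Ulk1OV and 103, 79.9 and 72.9 for 5xFAD;Ulk1OV. Both single-label groups lay below WT, with 5xFAD replicate 1 far under the rest, and the 5xFAD;Ulk1OV libraries overlapped all 3 other groups. Psmb10 (chromosome 8, 105935735 to 105938444) was at 39.4, 35.4 and 32.4 CPM for WT, 31.9, 25.3 and 27.8 for 5xFAD, 24.8, 33.5 and 25.6 for Ulk1OV and 39.8, 36.3 and 30.3 for 5xFAD;Ulk1OV. The 5xFAD libraries of Psmb10 lay just below WT, and Ulk1OV overlapped every group.

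**Figure D4:**
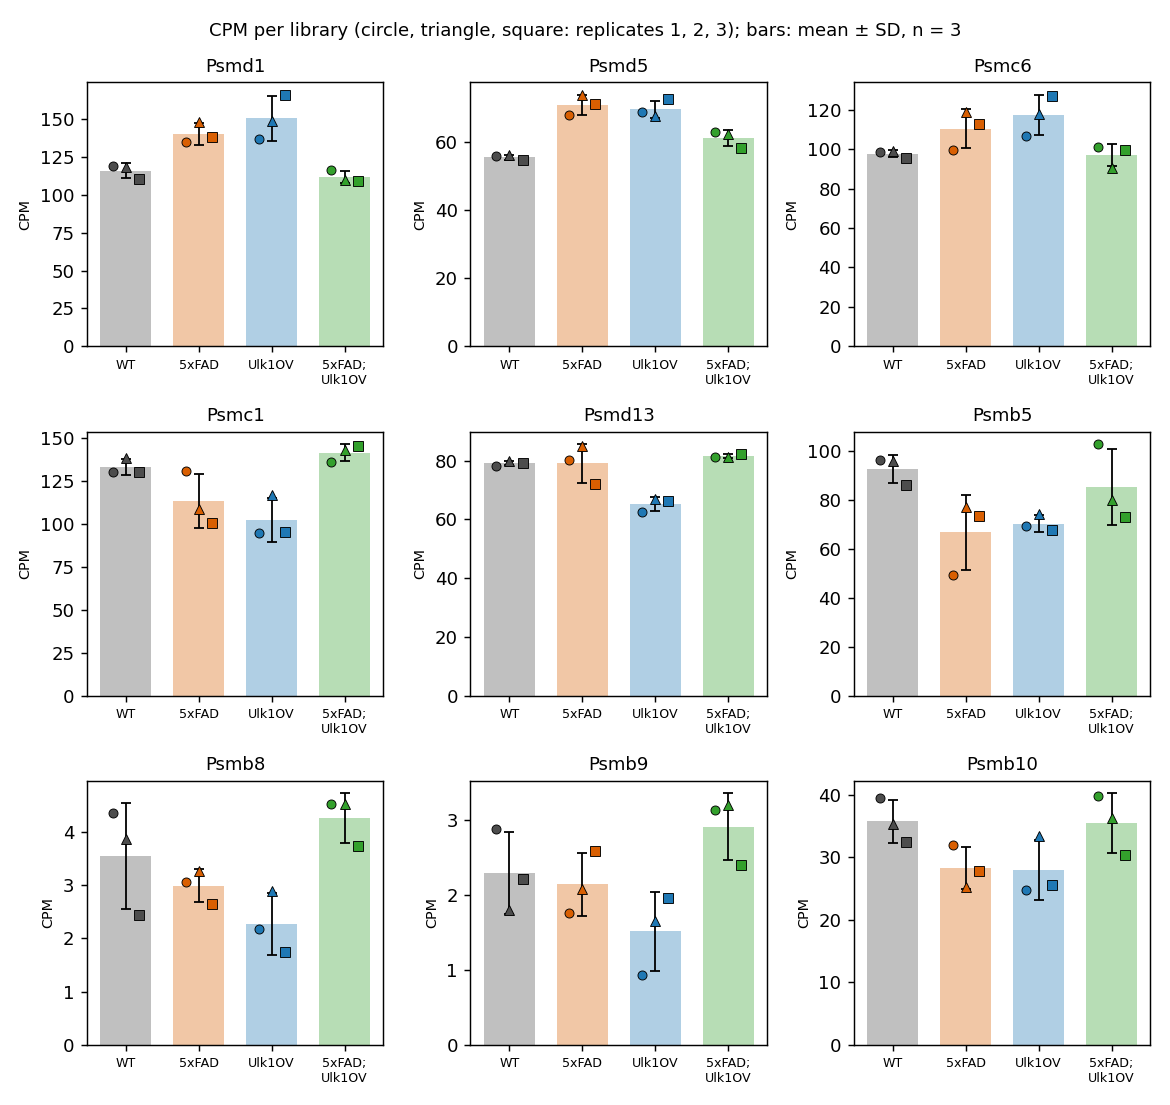
CPM of 9 members in every library, with circles, triangles and squares for replicates 1, 2 and 3 and bars for the group mean ± SD (n = 3). Psmd1, Psmd5 and Psmc6 have their highest means in 5xFAD and Ulk1OV, Psmc1, Psmb5 and Psmb10 their lowest there, and Psmd13 is low in Ulk1OV alone.

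Promoters are shown for 4 members called in the interaction, a pair on each side of 0, because subunits that share a regulator may share a binding motif. RefSeq's table on GRCm38.p6 held a start for 32 of the 39 members. In the 250 bases before the start, 5 of 32 (15.6%) had the core of the antioxidant response element, which NRF1 and NRF2 bind (TGACNNNGC, either strand), against 11.5% of 27025 genes. They were Psmb5, Psmb6, Psmc6, Psmd9 and Psmd12. The CCAAT box was present in 13 (40.6%, against 37.5%), the interferon response repeat GAAANNGAA in 3 (9.38%, against 8.18%), and the palindromic GAS element TTCNNNGAA in 1, Psmb8 (3.12%, against 8.13%). The 4 shares rest on 13 or fewer members each, and in the stretches printed here no match overlaps another.

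The stretches lie before the RefSeq start, outside annotated exons, and are read 5′ to 3′ on the gene's strand, with motif matches in capitals. Psmb5 (chr14:54618023-54618245, minus strand, positive in the interaction) has the antioxidant core 47 bases before its RefSeq start. Psmc6 (chr14:45329574-45329787, plus strand, negative) has it on the opposite strand at 227 bases. Psmc1 (chr12:100109952-100110153, plus strand, positive) has a CCAAT box at 175 bases, and Psmd5 (chr2:34870963-34871107, minus strand, negative) has none of the 4 motifs in its stretch. The antioxidant core thus stood before 1 member on each side of 0, and a match is a description of letters, not a site shown to be used.
Psmb5: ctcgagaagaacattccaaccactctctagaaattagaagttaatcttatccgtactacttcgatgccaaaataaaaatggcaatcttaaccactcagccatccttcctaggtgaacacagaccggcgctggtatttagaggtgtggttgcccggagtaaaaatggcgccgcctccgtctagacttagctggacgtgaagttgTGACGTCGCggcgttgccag
Psmc6: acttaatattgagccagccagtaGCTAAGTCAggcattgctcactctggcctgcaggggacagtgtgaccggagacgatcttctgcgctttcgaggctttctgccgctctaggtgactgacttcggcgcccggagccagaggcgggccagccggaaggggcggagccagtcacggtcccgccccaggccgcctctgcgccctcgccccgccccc
Psmc1: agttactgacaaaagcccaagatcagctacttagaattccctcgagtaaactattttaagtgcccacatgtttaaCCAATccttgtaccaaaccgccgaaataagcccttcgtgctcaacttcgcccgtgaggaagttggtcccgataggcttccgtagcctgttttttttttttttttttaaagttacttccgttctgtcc
Psmd5: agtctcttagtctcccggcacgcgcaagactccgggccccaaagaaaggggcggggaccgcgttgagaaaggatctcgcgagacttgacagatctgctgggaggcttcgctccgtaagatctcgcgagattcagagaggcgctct

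In the 4 comparisons all edgeR calls were outside the core. In the interaction edgeR called 0 of 7 alpha-ring genes, 1 of 7 constitutive beta genes and 1 of 3 immunoproteasome genes. Outside the core were Psmc1 and Psmc6, 1 of 3 base subunits, 0 of 8 lid genes and 1 of 3 Psmd-named chaperones. Over all genes 12.8% were called there, and differences between roles were not tested. At an unadjusted p under 0.05, 42.9% of the 14 core genes other than Psmb8 to Psmb10 passed. So did 100% of those 3, 33.3% of the ATPases and 42.9% of the Psmd genes, against 29.4% of all genes. DESeq2 called Psmb2, Psmb4, Psmb5, Psmb7, Psmb8 and Psmb10 in the core there, and Psmc1, Psmc6, Psmd1, Psmd5 and Psmd13 outside it. No alpha-ring gene was called by edgeR in any comparison or in the interaction, and their fitted values ran from -0.14 to 0.16 in 5xFAD against WT and from -0.13 to 0.11 in Ulk1OV against WT. At an unadjusted p under 0.05 the alpha ring had 0 of 7 in each of the 4 comparisons and 1 in the interaction, and DESeq2 called 0. In the constitutive beta ring, Psmb5 in the interaction was the 1 call by edgeR, while DESeq2 called Psmb2, Psmb4, Psmb5 and Psmb7 there and Psmb4 in 5xFAD;Ulk1OV against Ulk1OV. The catalytic neighbours of Psmb5 did not pass by edgeR: in the interaction Psmb7 gave 0.51 ± 0.17 (edgeR adjusted p = 0.0628; DESeq2 adjusted p = 0.0371; past the threshold in 5 of 18 alternatives) and Psmb6 0.23 ± 0.16 (0.379), and the sign of Psmb6 turned under the correction for GC content and length (-0.20). The 6 ATPases held Psmc1 and Psmc6, which moved in opposite directions, with the other 4 between -0.09 and 0.18 in the interaction. Among the Psmd genes, 10 of 14 were negative in the interaction (median -0.15), 6 of the 8 lid genes among them (median -0.20), and Psmd1 and Psmd5 were the calls.

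Psmb8 and Psmb9 had the fewest counts of the tested members and, outside 5xFAD against WT, the largest fitted differences. Psmb8 (chromosome 17, 34197721 to 34201454) was at 4.35, 3.87 and 2.44 CPM for WT, 3.05, 3.26 and 2.65 for 5xFAD, 2.18, 2.89 and 1.74 for Ulk1OV and 4.53, 4.53 and 3.73 for 5xFAD;Ulk1OV. Psmb9 (chromosome 17, 34181987 to 34187764) was at 2.88, 1.80 and 2.21 CPM for WT, 1.75, 2.08 and 2.59 for 5xFAD, 0.936, 1.65 and 1.96 for Ulk1OV and 3.13, 3.20 and 2.39 for 5xFAD;Ulk1OV. For both genes all 5xFAD;Ulk1OV libraries lay above all Ulk1OV libraries, while WT overlapped both groups. In 5xFAD;Ulk1OV against Ulk1OV, Psmb8 gave 0.91 ± 0.26 (edgeR adjusted p = 0.0555) and Psmb9 0.93 ± 0.31 (adjusted p = 0.0826), both missing the threshold. DESeq2 put them past it (adjusted p = 0.0189 and 0.048), and edgeR, with the library labelled 5xFAD;Ulk1OV replicate 3 left out, called Psmb8 (adjusted p = 0.0463) and not Psmb9 (0.066). Psmb9 overlaps Tap1, at 4.34 CPM, on the opposite strand, so its counts may have gained or lost reads in the overlap.

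Measured against the constitutive subunit that each replaces, per kilobase and within a library, Psmb8 stood at 2.10 ± 0.47% of Psmb5 for WT, 2.58 ± 0.75% for 5xFAD, 1.78 ± 0.37% for Ulk1OV and 2.79 ± 0.35% for 5xFAD;Ulk1OV (SD, n = 3 each). Psmb9 stood at 1.52 ± 0.39%, 1.58 ± 0.22%, 0.98 ± 0.26% and 1.84 ± 0.11% of Psmb6 in the same order. Psmb10 stood at 41.8 ± 2.67%, 41.0 ± 2.42%, 37.6 ± 6.20% and 41.6 ± 2.25% of Psmb7. Ulk1OV and 5xFAD;Ulk1OV did not overlap in the first 2 ratios, with Psmb9 over Psmb6 at 0.729 to 1.24% against 1.76 to 1.97%. The Psmb10 ratio overlapped between all groups. Psmb7, at 69.7 CPM, overlaps Nek6, at 50 CPM, on the opposite strand, so this ratio's denominator may have gained or lost reads in the overlap. No test was made of these ratios, since 0.1 is the smallest two-sided p that an exact permutation of 3 against 3 libraries can give.

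Immunoproteasome genes are abundant in immune and vascular cells, so markers of those cells are given beside them. The 6 leukocyte and border-macrophage markers summed to 23.6 to 49.5 CPM for WT, 19.9 to 27.1 for 5xFAD, 13.1 to 21.3 for Ulk1OV and 15.8 to 37.1 for 5xFAD;Ulk1OV. The 6 endothelial markers summed to 48.3 to 72.4, 39.8 to 55.6, 44.2 to 57.3 and 49.7 to 68.4 CPM in the same order, and the 6 fibroblast markers to 190.2 to 263, 91.7 to 184, 105 to 145 and 132 to 267 CPM. The 8 microglial markers lay at 450.1 to 545.8 CPM with every group overlapping. None of these markers was at 0 in all libraries. The leukocyte sums of all Ulk1OV libraries, and the fibroblast sums of all 5xFAD and Ulk1OV libraries, lay below every WT library. In both lists the sums of 5xFAD;Ulk1OV replicates 1 and 2 lay above every Ulk1OV library. Those of the library labelled 5xFAD;Ulk1OV replicate 3, at 15.8 and 132 CPM, lay within the Ulk1OV ranges. Its Psmb8 and Psmb9 nevertheless lay above every Ulk1OV library. The part of these cell types in the result was not tested.

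The genes around the proteasome were read from lists of its regulators, partners and clients. Nfe2l1, which encodes NRF1, was at 302, 304 and 274 CPM for WT, 273, 231 and 233 for 5xFAD, 218, 212 and 184 for Ulk1OV and 298, 302 and 261 for 5xFAD;Ulk1OV. All Ulk1OV libraries lay below all others. Nfe2l1 fell in Ulk1OV against WT (log2 -0.52 ± 0.10, edgeR adjusted p = 0.0251) and rose in 5xFAD;Ulk1OV against Ulk1OV (0.49 ± 0.10, adjusted p = 0.0197). Its interaction value was 0.74 ± 0.14 (adjusted p = 0.00779), past the threshold under all 18 alternatives. Of the 9 tested genes of NRF1 and NRF2 control, 1 passed in the first of these comparisons, 2 in the second and 3 in the interaction, all 3 positive. Of all genes tested, 5.17%, 6.1% and 12.8% passed in the same order. The others were Keap1, which targets NRF2 for degradation (0.42 ± 0.10, adjusted p = 0.0276, in 5xFAD;Ulk1OV against Ulk1OV, and 0.58 ± 0.14, adjusted p = 0.0183, in the interaction), and Maff, a small partner factor named after its values were seen (interaction 1.78 ± 0.51, adjusted p = 0.0378). The calls of Keap1 and Maff ended under the correction for GC content and length, and Maff had only 1.09 to 4.54 CPM.

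Partners bound to the proteasome moved in both directions. Of 14 tested, Usp14, a deubiquitinase that docks on Psmd2, was the 1 called in Ulk1OV against WT (log2 0.31 ± 0.07, edgeR adjusted p = 0.0314), where 5.17% of all genes were called. In the interaction 3 of the 14 were called, against 12.8% of all genes: Usp14 (-0.54 ± 0.10, adjusted p = 0.00744), the ubiquitin receptor Adrm1 (0.47 ± 0.13, adjusted p = 0.0349) and Sem1 (0.61 ± 0.17, adjusted p = 0.0359). Usp14 was at 111, 119 and 119 CPM for WT, 141, 147 and 141 for 5xFAD, 141, 140.3 and 151 for Ulk1OV and 126, 122 and 118 for 5xFAD;Ulk1OV, so the single-label libraries all lay above the others, as for Psmd1. Sem1, the small lid protein outside the Psm naming and named after its values were seen, was at 25.3 to 27.4 CPM in 5xFAD, 34.2 to 40.3 CPM in WT and 5xFAD;Ulk1OV, and 26.1, 37.1 and 37.5 CPM in Ulk1OV, whose replicate 1 lay within the 5xFAD range. Under the correction for GC content and length the calls of Usp14 ended and the sign of Adrm1 turned (-0.08). The 5 activator and inhibitor genes and the 5 core assembly chaperones had 0 calls by edgeR in any comparison. At an unadjusted p under 0.05 the chaperones had 0 throughout, and DESeq2 called 0 of them. The activators had 2, Psme4 and Psme2, in both comparisons of 5xFAD;Ulk1OV and in the interaction. Against 5xFAD, DESeq2 called both, where Psme4 gave -0.37 ± 0.10 (edgeR adjusted p = 0.0977) and Psme2 0.50 ± 0.15 (edgeR adjusted p = 0.128), and against Ulk1OV it called Psme4.

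Class I antigen genes, whose products load and present the peptides that proteasomes make, were lower in Ulk1OV against WT in 9 of 10 tested, and 2 of 10 fell (5.17% of all genes were called): the heavy chain H2-D1 (log2 -0.56 ± 0.12, edgeR adjusted p = 0.0287) and tapasin, gene Tapbp (-0.59 ± 0.16, adjusted p = 0.0458). Both rose in 5xFAD;Ulk1OV against Ulk1OV, where 6.1% of all genes were called (0.66 ± 0.12, adjusted p = 0.016, and 0.60 ± 0.16, adjusted p = 0.0392). H2-D1 was at 61.6, 56.2 and 52.9 CPM for WT, 49.3, 57.5 and 52.8 for 5xFAD, 40.4, 44.2 and 31.2 for Ulk1OV and 65.9, 59.7 and 56.9 for 5xFAD;Ulk1OV. All Ulk1OV libraries lay below all others. The correction for GC content and length ended both calls against WT (adjusted p = 0.0533 for H2-D1 and 0.129 for Tapbp) and that of Tapbp against Ulk1OV (0.152), and kept that of H2-D1 (0.0383). The 1 gene higher in Ulk1OV against WT was B2m, at 125, 157 and 128 CPM against 119, 131 and 109. B2m gave 0.36 ± 0.12 in 5xFAD against WT (edgeR adjusted p = 0.278). In 5xFAD;Ulk1OV against 5xFAD it gave -0.34 ± 0.12 (edgeR adjusted p = 0.184). In the interaction 8 of the 10 were positive and 2 negative. There 3 of 10 class I genes passed, against 12.8% of all genes: H2-D1 (0.76), Tapbp (0.95) and H2-K1 (0.74, named after its values were seen), and all 3 calls ended under the correction for GC content and length (adjusted p = 0.106, 0.109 and 0.27). With the library labelled 5xFAD;Ulk1OV replicate 3 left out, every call given here for these regulators, partners and class I genes stayed past edgeR's threshold, with Nfe2l1 at 0.83 and Usp14 at -0.49 in the interaction (adjusted p = 0.00463 and 0.0119). Over the 12 runs that each left out 1 library, the interaction calls of Nfe2l1, Usp14, H2-D1 and Tapbp held in 12, that of Keap1 in 9, H2-K1 in 5, Sem1 and Adrm1 in 4 and Maff in 3. The calls in Ulk1OV against WT held in 9 of 12 runs for Nfe2l1 and H2-D1, 8 for Usp14 and 4 for Tapbp. Those in 5xFAD;Ulk1OV against Ulk1OV held in 9 for Nfe2l1 and H2-D1, 8 for Keap1 and 5 for Tapbp. All of these against WT were lost without WT replicate 1, WT replicate 2 or Ulk1OV replicate 3, and all of those against Ulk1OV without 5xFAD;Ulk1OV replicate 1, 5xFAD;Ulk1OV replicate 2 or Ulk1OV replicate 3.

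The direction of the members went with the base composition of their transcripts. Across the 37 members, log2 fold change and GC content correlated at r = -0.49 in 5xFAD against WT, -0.47 in Ulk1OV against WT and 0.53 in the interaction, against -0.28, -0.30 and 0.41 over 17111 genes. These correlations are across genes of the same libraries, which are not independent replicates, so they carry no p. Psmb5, Psmb10, Psmb8 and Psmb9, all positive in the interaction, had transcripts of 55.3 to 56.6% GC. Psmc6, Psmd5 and Psmd1, all negative, had 37%, 45.1% and 46.9%. Psmc1 was positive at 49.5% GC, and its interaction value was 0.70 before and 0.66 after the correction, whereas Psmb5 went from 0.75 to 0.30. The part of library composition in the calls that ended under the correction was not tested.

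**Figure D5:**
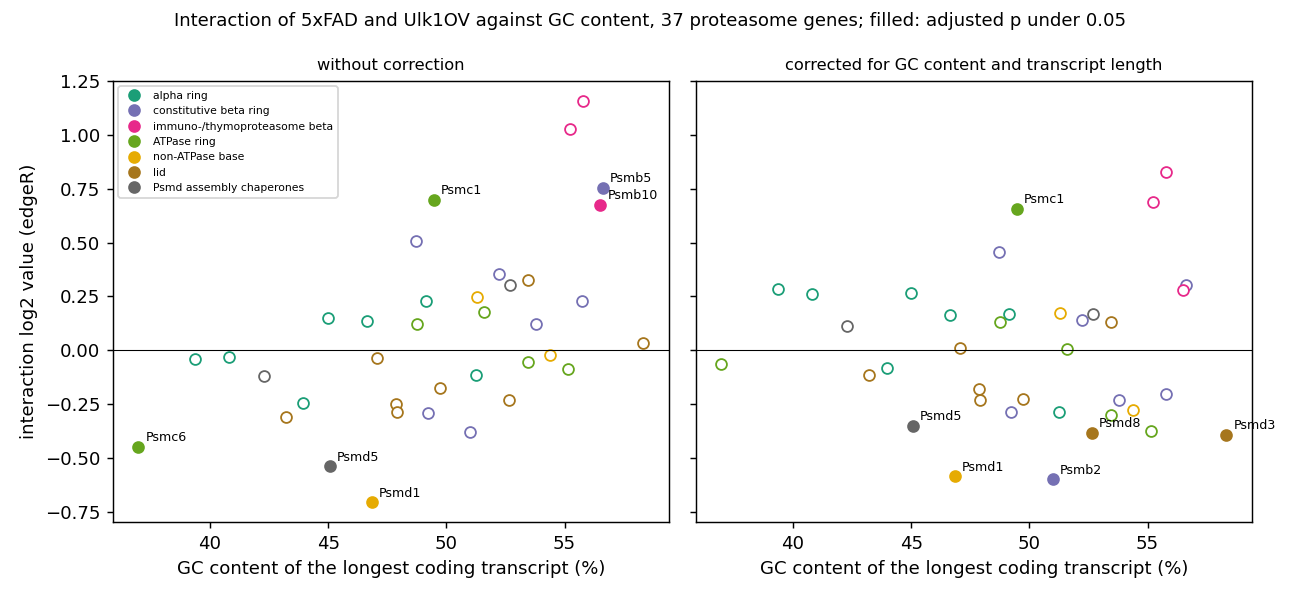
Interaction value of the 37 tested members against the GC content of their longest coding transcript, without correction (left) and with each library corrected for GC content and transcript length (right). Filled points passed an adjusted p of 0.05. Psmd1, Psmd5 and Psmc1 are filled in both panels, whereas Psmb5, Psmb10 and Psmc6 are filled in the left panel only.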

How the data were processed

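RNA from hippocampus was sequenced from NEBNext Ultra libraries, per the labels' protocols. The deposited values are raw counts per gene, made by the authors with FastQC, Trim Galore, HISAT2, SAMtools and featureCounts on mm10, per the submitters' processing notes, which also name DESeq2. Tool versions, annotation and strand setting are not stated in those notes. Libraries were grouped by title and genotype label.

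Here all 12 libraries were fitted together, without covariates, with edgeR 4.0.16 (filterByExpr, TMM scaling, glmQLFit and glmQLFTest) and limma 3.58.1 in R 4.3.3, and p-values were Benjamini-Hochberg adjusted over 17227 genes with a threshold of 0.05. CPM uses the TMM-scaled sum of the tested genes. Lengths, GC content and positions came from GENCODE mouse release 21 (GRCm38), and promoters from RefSeq. The alternatives were DESeq2 1.42.0, its size factors, no low-count filter (at least 1 count in any library), the replicate number as a block, only the groups compared, a loess correction (span 0.4) of each library for GC content and transcript length (99.3% of tested genes had values), and leaving out each library. DESeq2 without the library labelled 5xFAD;Ulk1OV replicate 3 was added after seeing the data. The edgeR and DESeq2 fits were tested on simulated data.

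Members and gene lists were chosen with earlier results of these data known. The rule named Psmb5 to Psmb10, up to 6 members per comparison with the smallest p, up to 2 genes per pathway list, and the members lowest and highest in level. Other members named were called under an alternative and were chosen after their values were seen. Totals of 16149992 to 18547132 counts set the counting precision, which for Psmb8 and Psmb9 is the lowest of the tested members. Of the gene lists, 1 is not reported here.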

Additional observations from a re-analysis of the deposited data

Results flagged for a closer look

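For 6 members the difference between 5xFAD and non-5xFAD libraries was not the same with and without Ulk1OV, by the edgeR test of the interaction itself. They were 16.2% of the tested members, against 12.8% of all genes. The log2 values were 0.754 for Psmb5, 0.676 for Psmb10, 0.698 for Psmc1, -0.448 for Psmc6, -0.706 for Psmd1 and -0.54 for Psmd5. The first 2 are catalytic beta subunits, Psmc1 and Psmc6 are ATPases, Psmd1 is the base scaffold and Psmd5 an assembly chaperone. The calls of Psmb5, Psmb10 and Psmc6 ended under the correction for GC content and length. Over the 12 runs that each left out 1 library, they held in 5, 4 and 2. Those of Psmd1, Psmd5 and Psmc1 held in 12. The test for a single outlying value in a group was not run, since it needs more than 3 libraries a group.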

How the results depend on the processing

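Counts of members called are given in the order used above: the 5xFAD effect in mice without Ulk1OV, 5xFAD;Ulk1OV set against 5xFAD, Ulk1OV set against WT, 5xFAD;Ulk1OV set against Ulk1OV, and the interaction. DESeq2 called 1, 1, 5, 8 and 11, and 1, 1, 4, 7 and 11 when it left out the library labelled 5xFAD;Ulk1OV replicate 3 (1.27%, 3.82%, 11.7%, 14.3% and 18.5% of all genes, those with no adjusted p counted as not called). With no low-count filter edgeR called 1, 1, 4, 4 and 7 (1.74%, 2.85%, 6.57%, 6.63% and 8.97%). With only the libraries compared, Ulk1OV against WT gave 1 member, Psmb5 (4.77%). Leaving out 1 library at a time gave 0 to 0, 0 to 1, 0 to 5, 0 to 6 and 3 to 8 members. Over all genes the same runs called 0 to 39, 0 to 260, 0 to 1294, 0 to 1629 and 974 to 2596. The correction for GC content and length gave member medians of 0.0593 in 5xFAD against WT, -0.0285 in 5xFAD;Ulk1OV against 5xFAD and -0.0291 in Ulk1OV against WT. Leave-one-out medians ran from -0.0207 to 0.104 in Ulk1OV against WT and from -0.0389 to 0.0708 in the interaction. The cause was not tested.

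Psmb6 changed sign under the GC and length correction in all 5 (0.0288, -0.0676, 0.136, -0.175 and -0.204), as did Psmb9 in 5xFAD against WT (0.0593) and Adrm1 in the interaction (-0.0827). Leaving out single libraries, Psmb9 in 5xFAD against WT ran from -0.259 to 0.0956, Psmb6 in Ulk1OV against WT from -0.0972 to 0.104, and Psmb6, 5xFAD;Ulk1OV against Ulk1OV, from -0.0561 to 0.161. None of these values of Psmb6 or Psmb9 passed the adjusted threshold.

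Replicate numbers were used as a replicate block in 1 alternative. It gave 0, 0, 2, 4 and 7 members (0.0%, 0.0%, 6.0%, 7.0% and 13.1% of all genes). The block ended the call of Psmd13 in Ulk1OV against WT (edgeR adjusted p = 0.0538) and added Psmb8 to the last 2. The numbers did not pair the libraries: over 18 same-numbered pairs the correlation of deviations ran from -0.205 to 0.244, 4 were over 0.1, and 4 of 12 libraries correlated best with their own number.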
